A study of Mus musculus with 8 samples.

Results

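Hprt, Rpl13a, Ppia and Gusb are 4 housekeeping genes, each measured by 1 probe that was printed as 20 spots on every array. They were found as the probes whose RefSeq transcript accession, with the version removed, belongs to one of these genes in a RefSeq gene table, and they are 4 of the 112 genes that could be named on the array. Their probes hold 80 of the 59994 spots that are not controls. The arrays measured RNA of skeletal muscle from mice of the outbred stock ICR at postnatal day 0 (D0, birth) and postnatal day 65 (D65, young adult), with 4 arrays per age. Both ages share tissue, strain and preparation, and the labels name no genotype or treatment, nor whether each sample is a different animal, so the spread behind every p-value may be only technical. The RNA was depleted of ribosomal RNA and turned into Cy3-labelled cRNA by random priming along the whole transcript. The study compared the ages to find long noncoding RNAs that differ between newborn and adult muscle, and these 4 are coding genes in common use as references.

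Housekeeping genes are transcribed in nearly every cell type, and for that reason several are used as references to which other transcripts are scaled. Hprt encodes hypoxanthine-guanine phosphoribosyltransferase, which returns purine bases to the nucleotide pool. Rpl13a encodes a protein of the large ribosomal subunit, Ppia encodes cyclophilin A, an abundant prolyl isomerase of the cytoplasm that binds cyclosporin, and Gusb encodes beta-glucuronidase, which degrades glycosaminoglycans in lysosomes. Muscle growth after birth involves a shift from dividing and fusing cells to large mature fibres. In whole muscle, fewer cells of a type and less RNA per cell cannot be told apart.

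The stretches before the start sites of the 4 genes are shown because Hprt and Rpl13a had nearly the same difference between the ages and the other two had smaller ones. The sequences are the 250 bases before the start site in RefSeq promoters of GRCm38.p6, read on the gene's strand, at chrX:52987828-52988077 (plus strand) for Hprt, chr7:45128746-45128995 (minus strand) for Rpl13a, chr11:6415617-6415866 (plus strand) for Ppia and chr5:130003050-130003299 (minus strand) for Gusb. The array grid follows mm9, and no array value was placed on these coordinates. Capitals mark matches on either strand to the GC box GGGCGG, the CCAAT box CCAAT and the TATA box TATAAA.
Hprt: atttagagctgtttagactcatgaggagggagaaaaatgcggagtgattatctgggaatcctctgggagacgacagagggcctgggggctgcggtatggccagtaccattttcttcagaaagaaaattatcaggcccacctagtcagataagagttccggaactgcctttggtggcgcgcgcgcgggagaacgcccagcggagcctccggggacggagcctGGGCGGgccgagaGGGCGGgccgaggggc
Rpl13a: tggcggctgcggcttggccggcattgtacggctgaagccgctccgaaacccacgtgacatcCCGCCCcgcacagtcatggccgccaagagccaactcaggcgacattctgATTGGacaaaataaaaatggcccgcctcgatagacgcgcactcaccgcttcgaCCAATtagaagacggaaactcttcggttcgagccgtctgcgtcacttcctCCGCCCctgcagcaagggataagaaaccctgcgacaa
Ppia: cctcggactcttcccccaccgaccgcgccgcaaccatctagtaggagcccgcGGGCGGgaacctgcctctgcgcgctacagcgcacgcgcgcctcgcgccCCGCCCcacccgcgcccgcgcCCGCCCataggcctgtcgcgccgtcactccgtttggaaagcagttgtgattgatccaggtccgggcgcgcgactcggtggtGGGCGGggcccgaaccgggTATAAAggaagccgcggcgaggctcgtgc
Gusb: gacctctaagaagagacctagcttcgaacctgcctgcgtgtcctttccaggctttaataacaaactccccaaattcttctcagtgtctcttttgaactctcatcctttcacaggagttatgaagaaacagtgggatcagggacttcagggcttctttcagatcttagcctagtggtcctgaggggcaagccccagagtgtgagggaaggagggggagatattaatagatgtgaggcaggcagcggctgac
Hprt had 2 GC box matches, with first bases at -29 and -16 from the start site, and no match to the other motifs. Rpl13a had 2 GC box matches and 2 CCAAT matches, at -140 and -87. Ppia had 4 GC box matches and a TATA match at -29, the only TATA match among the 4 genes. Gusb had no match to any of the 3 motifs in this window. The GC box was found in 32.7% of 32851 promoters of the same length, CCAAT in 33.8% and TATAAA in 12.4%. The window of Ppia held 38 CpG dinucleotides, that of Rpl13a 24, that of Hprt 17 and that of Gusb 3, where the median over all promoters was 6. Hprt and Rpl13a thus shared the GC box but not the CCAAT box. Ppia had more GC box matches than either, so the GC box was not particular to that pair. The matches are a description of letters only.

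All 640 readings of these spots (80 spots on 8 arrays) were well above background, none was saturated, and 16 were left out as outliers. Levels are given as log2 of the processed signal, averaged over the spots of a probe, minus the 75th percentile of the array. Over all probes, 63.1% to 68.4% were well above background on the D0 arrays and 52.3% to 60.7% on the D65 arrays. That percentile was 255.7 to 309.2 signal units on D0 replicates 1 to 3, 136.5 on D0 replicate 4 and 120.6 to 151.4 on the D65 arrays. D0 replicate 4 also stood apart in its pattern, with Spearman correlations across the 34948 kept probes of at most 0.913 with its own age, where the other D0 arrays each reached 0.951 or more with one another. The age of each array and the first number of its barcode in the file header (1 for D0, 2 for D65) coincide. What that number stands for is not stated, and it cannot be told apart from age. All arrays share 1 scan time. None of the listed markers of muscle fibres, myogenic progenitors, blood, endothelium, fat, fibroblasts, nerve or cartilage has a named probe, so the tissue label could not be checked and the share of other cell types in the samples was not tested.

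Hprt and Rpl13a, a purine salvage enzyme and a ribosomal protein, fell between birth and adulthood, 2.93-fold for Hprt and 2.81-fold for Rpl13a. Ppia and Gusb were lower by smaller factors, 1.59-fold and 1.88-fold, which did not reach the minimum change. A probe was called changed at a limma adjusted p under 0.05 (Benjamini-Hochberg over 34948 kept probes) and a log2 difference of at least 1. By that rule 2 of the 4 genes were called, both lower, beside 22.1% of all kept probes called in either direction and 12.6% called lower. By adjusted p alone all 4 genes passed, beside 30.5% of kept probes in either direction and 15.8% lower. For each of the 4 genes every D65 array lay below every D0 array. The ages were separated in this way, in either direction, for 31.5% of kept probes, and lower at D65 for 16.4%.

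**Figure D1:**
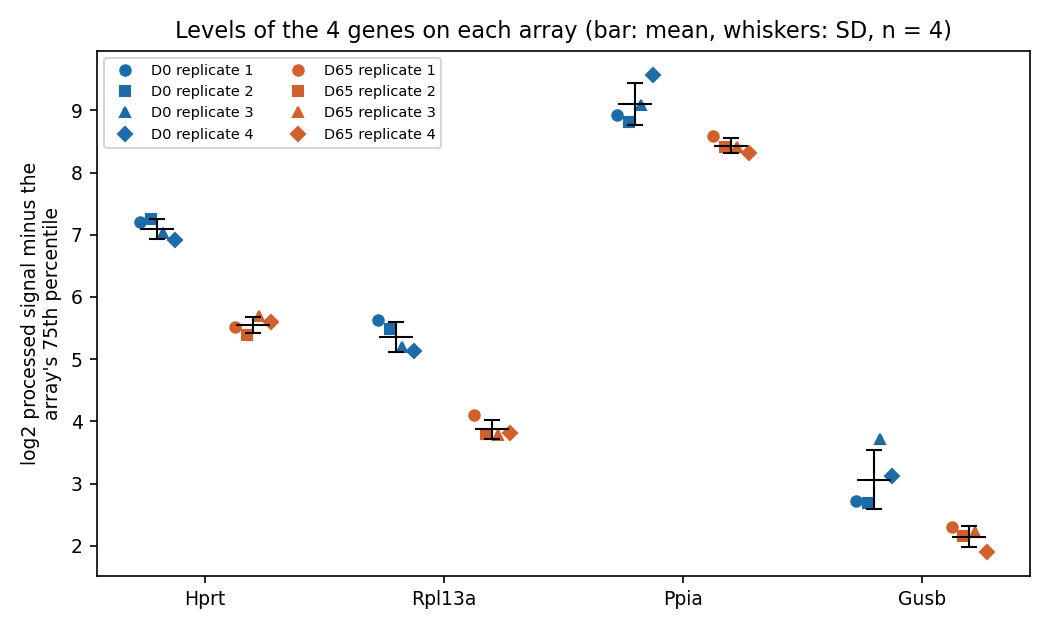
Level of each gene (vertical axis, log2 processed signal minus the array's 75th percentile) on the 4 D0 arrays (blue) and the 4 D65 arrays (orange), with marker shape for the replicate, a bar for the mean and whiskers for the SD. All D65 points lie below all D0 points of the same gene, with a gap of 1.22 for Hprt, 1.03 for Rpl13a, 0.39 for Gusb and 0.21 for Ppia. Heights of different genes are not comparable, since each has its own probe.

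Hprt had levels of 7.21, 7.25, 7.02 and 6.91 on D0 replicates 1 to 4 and of 5.51, 5.39, 5.69 and 5.60 on D65 replicates 1 to 4. The D0 arrays lay within 1 narrow band, the D65 arrays within another, and the gap between the bands was several times the spread inside either. The mean was 7.10 ± 0.16 at D0 and 5.55 ± 0.13 at D65 (SD, n = 4 arrays per age). The log2 level of Hprt fell by 1.55 (SE 0.19), with a 95% interval from -1.97 to -1.13 and a limma adjusted p of 0.000249. Of the kept probes, 8.17% had a more negative difference. Hprt was called lower in all 28 alternatives run. Most of these leave out single arrays, use a part of the spots or change the scaling, the filter or the fit. The alternative that only drops the minimum change reuses the main fit, so it could not undo a call. The difference of Hprt ranged from -2.32 with no scaling between arrays to -1.15 with scaling to the 11 other genes with 20 spots. Its median processed signal was 39756, 47112, 33172 and 16363 on the D0 arrays and 5973, 5020, 7540 and 7406 on the D65 arrays. D0 replicate 4 and the D65 arrays have 75th percentiles of similar size. Between these unscaled signals Hprt was still brighter on the newborn array than on any adult one. This rests on 1 newborn array, which stood apart in its pattern. Ppia (105392 against at most 51250) and Gusb (1193 against at most 676) were also brighter on that array.

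Rpl13a had levels of 5.63, 5.49, 5.19 and 5.13 on the D0 arrays and of 4.10, 3.79, 3.79 and 3.81 on the D65 arrays. D65 replicate 1 was the highest adult array, and it still lay below all newborn ones. The mean was 5.36 ± 0.24 at D0 and 3.87 ± 0.15 at D65 (SD, n = 4). The log2 level of Rpl13a fell by 1.49 (SE 0.20), with a 95% interval from -1.94 to -1.03 and a limma adjusted p of 0.000498. Like Hprt it was called lower in all 28 alternatives, of which the alternative without a minimum change could not undo a call. Its difference ranged from -2.25 to -1.09. Its median processed signal was 13328, 14062, 9473 and 4833 on the D0 arrays and 2252, 1692, 2017 and 2130 on the D65 arrays, so D0 replicate 4 was brighter than every adult array here too. It is the only ribosomal protein gene with a named probe on the array, so whether other ribosomal proteins differ was not tested. Mouse Rpl13a has processed pseudogenes of near-identical sequence, and which copies its probe reads is uncertain, since the files give no probe sequence.

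Gusb varied most between newborn arrays. Its levels were 2.72, 2.69, 3.71 and 3.12 on the D0 arrays and 2.31, 2.16, 2.22 and 1.90 on the D65 arrays. D0 replicate 3 lay far above D0 replicates 1 and 2, which were nearer to the adult arrays than to it. The mean was 3.06 ± 0.47 at D0 and 2.15 ± 0.17 at D65 (SD, n = 4). The difference was -0.91 (SE 0.26, 95% interval -1.49 to -0.33, limma adjusted p 0.0242), just under the minimum change. It reached the minimum at -1.03 after normexp correction with the 75th percentile and at -1.03 and -1.04 without D0 replicates 1 and 2, and with no scaling between arrays it was -1.68. The adjusted p rose above 0.05 without D65 replicates 2, 3 and 4 (0.0557, 0.0501 and 0.0744) and with no filter on dim probes (0.0528), and it was 0.141, at a difference of -0.51, with scaling to the 11 other genes with 20 spots. Without D0 replicate 3 the difference was -0.70. No other lysosomal hydrolase of the 23 listed has a named probe.

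Ppia had the smallest difference of the 4 genes. Its levels were 8.92, 8.81, 9.08 and 9.57 on the D0 arrays and 8.59, 8.40, 8.41 and 8.31 on the D65 arrays. D0 replicate 4 was the highest newborn array for Ppia, whereas it was the lowest for Hprt and Rpl13a. This split was not particular to these genes. Among the 11 other genes with 20 spots, D0 replicate 4 was the highest newborn array for Tuba1b, Ldhal6b, Gk, Tfrc, Gapdh and B2m. For Nono, Actb, Tbp, G6pd2 and Hsp90ab1 it was the lowest. The mean of Ppia was 9.10 ± 0.34 at D0 and 8.43 ± 0.12 at D65 (SD, n = 4). The difference was -0.67 (SE 0.22, 95% interval -1.16 to -0.18, limma adjusted p 0.0442), below the minimum change. Among the 8 fits that leave out 1 array, the adjusted p stayed under 0.05 without D0 replicate 2 (0.0496) and without D0 replicate 4 (0.0457, difference -0.51). Without D0 replicate 1 or 3 it was 0.0676 and 0.0765, and without D65 replicates 1 to 4 it was 0.0613, 0.095, 0.0927 and 0.115. With scaling to the 11 other genes with 20 spots the difference was -0.27 (adjusted p 0.439), and with no scaling it was -1.43 and called.

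In processed signal D0 replicate 4 was the dimmest newborn array for Ppia, as it was for Hprt, Rpl13a and Gusb. The median of Ppia was 133936, 140528, 139928 and 105392 on the D0 arrays, so D0 replicate 4 lay closer to the other newborn arrays than it did for Hprt. On the D65 arrays it was 51250, 40831, 50029 and 48014. None of these spots was flagged as saturated. Ppia, too, has many near-identical processed pseudogenes in the mouse genome, so the copies behind its signal are uncertain. It is the only cyclophilin of the 16 listed that has a named probe, and Hprt is the only one of 18 listed genes of purine salvage and synthesis.

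**Figure D2:**
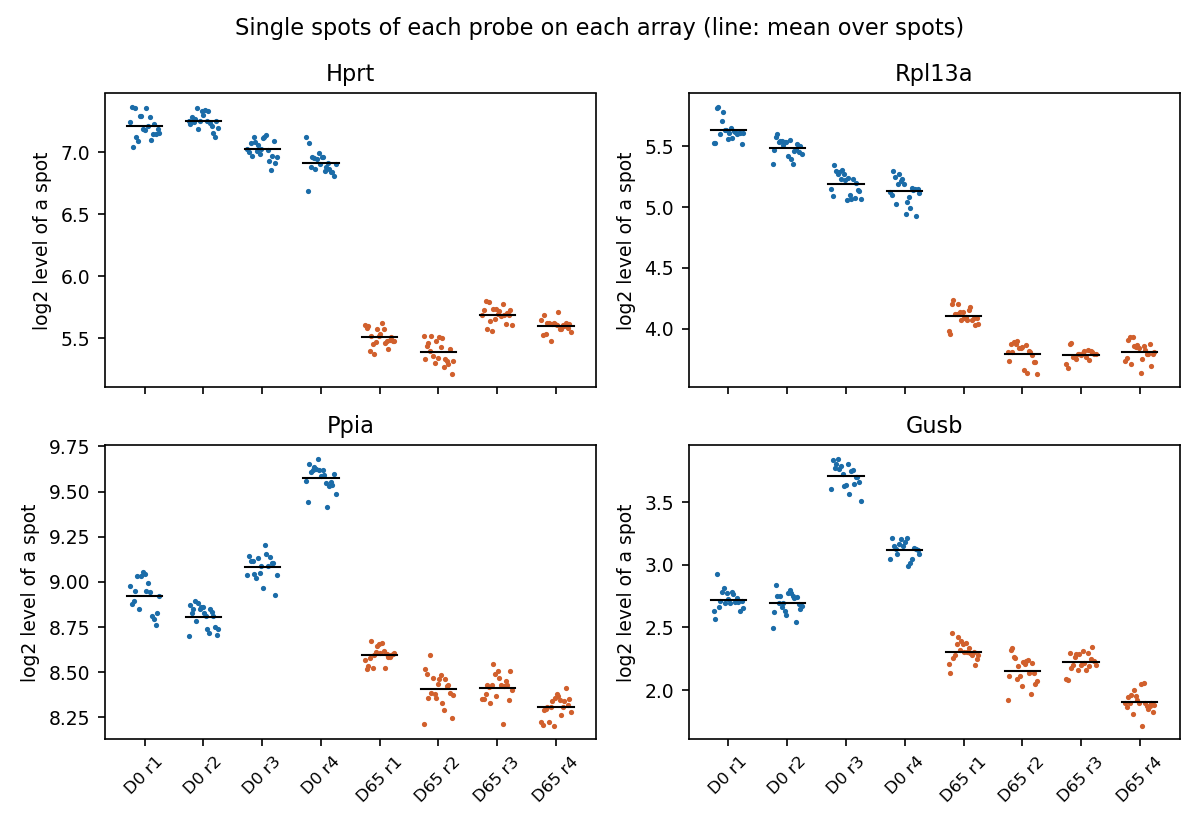
Level of each single spot (vertical axis, log2 processed signal minus the array's 75th percentile) of the 4 probes on each array (horizontal axis, r for replicate), D0 in blue and D65 in orange, with a line at the mean over spots. The spots of an array lie close together, with SDs of 0.05 to 0.11, and the lowest D0 spot is above the highest D65 spot for every gene.

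The repeated spots show how precisely each array measured these genes. Over all 4 genes and 8 arrays, the SD between spots ranged from 0.05 to 0.11 on the log2 scale, with a median of 0.08. That is below the SD between arrays of an age, which was 0.12 to 0.47, for every gene and age. The lowest single D0 spot of Hprt was at 6.69 and the highest D65 spot at 5.80. For Rpl13a these were 4.92 and 4.23. For Gusb they were 2.49 and 2.45, and for Ppia 8.70 and 8.67, so for both the gap was smaller than the SD between spots. Spots on 1 array share its RNA and are no replicates of an age. With spots from the upper, lower, left or right part of the array alone, the differences were -1.56 to -1.53 for Hprt, -1.52 to -1.47 for Rpl13a, -0.93 to -0.91 for Gusb and -0.70 to -0.64 for Ppia.

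The ratio of 2 genes on the same array does not depend on a factor that scales the whole array. Quantile normalization and normexp correction can alter it. The ratio tells whether the genes changed by the same factor if both probes respond in proportion to their RNA, which was not tested. It does not tell which of them changed. Each of the 6 ratios was tested with limma after the level of the second gene was subtracted from all kept probes, and called at an adjusted p under 0.05. An exact permutation test over the 8 arrays stands beside it, which with 4 arrays against 4 cannot go below 0.0286 (two-sided). The ratios of Hprt and of Rpl13a to Ppia fell, and the others were not called. Both ratios that fell hold the same Ppia levels, so they are not separate results.

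**Figure D3:**
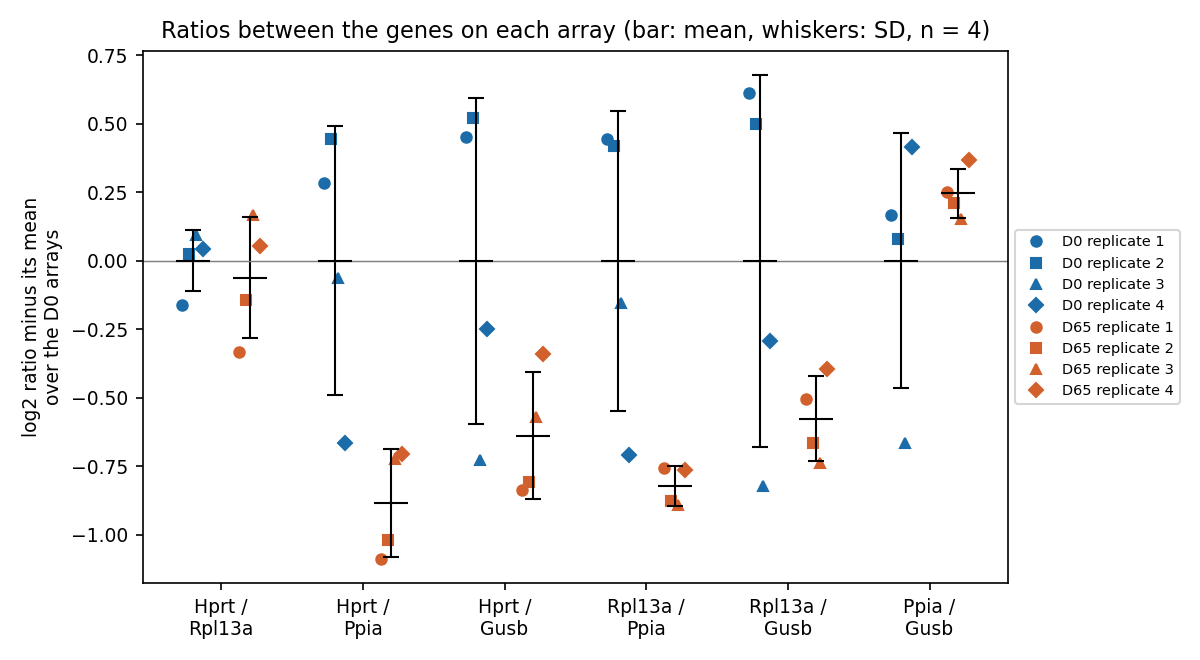
Log2 ratio of each pair of genes on each array (vertical axis, minus the pair's mean over the D0 arrays), D0 in blue and D65 in orange, with marker shape for the replicate, a bar for the mean and whiskers for the SD. The ratio of Hprt to Rpl13a varies little on the newborn arrays and overlaps between the ages. The ratios to Ppia lie lower on all D65 arrays, with D0 replicate 4 next to them, and the ratios that hold Gusb overlap.

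Hprt and Rpl13a did not differ detectably in their change. Relative to the D0 mean, their log2 ratio was -0.16, 0.02, 0.09 and 0.04 on the D0 arrays and -0.33, -0.14, 0.17 and 0.06 on the D65 arrays. The values of the ages lay among each other. The ratio differed by -0.06 (SE 0.24, 95% interval -0.59 to 0.47, limma adjusted p 0.815, exact permutation p 0.657). The interval allows a change of the ratio by a factor of 1.51 downward, so equal changes are not shown. The sign of the difference turned without D65 replicate 1 (0.03) and with array weights (0.02), and neither was called. Of all kept probes, 82.0% had a ratio to Rpl13a called in either direction and 3.49% one called lower. The ratio of Hprt to Rpl13a had an SD of 0.17 over the 8 arrays, the smallest among the 6 ratios, whose others ranged from 0.34 to 0.59.

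The ratio of Hprt to Ppia was 0.28, 0.44, -0.06 and -0.67 on the D0 arrays, relative to their mean, and -1.09, -1.02, -0.72 and -0.71 on the D65 arrays. D0 replicate 4 lay next to the adult arrays and far below the newborn ones. The log2 ratio fell by 0.88 (SE 0.26, 95% interval -1.48 to -0.29, limma adjusted p 0.0184), a 1.84-fold fall. Of all kept probes, 7.69% had a ratio to Ppia that was called lower and 56.0% one called in either direction. The ages did not overlap in their ratio to Ppia for 51.2% of kept probes, and for 6.46% all D65 arrays were lower. The exact permutation p was 0.0286, the smallest this design allows, and 0.0857 after Benjamini-Hochberg adjustment over the 6 ratios. Without D0 replicate 4 the difference was -1.11 (limma adjusted p 0.00259). Without D0 replicates 1, 2 and 3 the limma adjusted p was 0.049, 0.047 and 0.0364. Without D65 replicates 1 to 4 it was 0.0482, 0.0466, 0.0321 and 0.033, and with replicate number as a block 0.0496. The call of Hprt to Ppia was thus kept in all 23 alternatives fitted with limma, in several of them only just under 0.05. By the exact permutation test it was kept only before adjustment over the 6 ratios.

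The ratio of Rpl13a to Ppia was 0.44, 0.42, -0.16 and -0.71 on the D0 arrays and -0.76, -0.88, -0.89 and -0.76 on the D65 arrays. The adult arrays were close together, the newborn ones spread out. It fell by 0.82 (SE 0.27, 95% interval -1.43 to -0.21, limma adjusted p 0.0282), a 1.77-fold fall, with an exact permutation p of 0.0286, or 0.0857 adjusted over the 6 ratios. This call was lost without D0 replicate 1 (difference -0.67, limma adjusted p 0.0728), D0 replicate 2 (-0.68, 0.0709) and D65 replicates 1 to 4 (limma adjusted p 0.051, 0.0612, 0.0642 and 0.0569). Without D0 replicate 4 the difference was -1.06 (limma adjusted p 0.00313).

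The ratios to Gusb were not called. Hprt to Gusb was 0.45, 0.52, -0.73 and -0.25 on the D0 arrays and -0.84, -0.81, -0.57 and -0.34 on the D65 arrays. D0 replicates 3 and 4 lay among the adult values or next to them. The difference was -0.64 (SE 0.35, 95% interval -1.40 to 0.12, limma adjusted p 0.133, exact permutation p 0.114). Without D0 replicate 3 it was -0.88 and called (limma adjusted p 0.0224), and without D0 replicate 2 it was -0.46 (0.318). It was also called with array weights (-1.07, limma adjusted p 0.00109) and after normexp correction with the 75th percentile (-0.74, 0.0357) or quantile normalization (-0.71, 0.0498). Rpl13a to Gusb gave -0.58 (SE 0.37, 95% interval -1.36 to 0.21, limma adjusted p 0.184, exact permutation p 0.2), and without D0 replicate 3 it was -0.85 and called (limma adjusted p 0.0273), whereas without D0 replicate 1 it was -0.37 (0.426). With array weights it was -1.07 and called (limma adjusted p 0.00112). Of all kept probes, 57.3% had a ratio to Gusb called in either direction and 5.52% one called lower. The ratio of Ppia to Gusb differed by 0.25 (SE 0.33, 95% interval -0.45 to 0.94, limma adjusted p 0.521, exact permutation p 0.429). It was 0.17, 0.08, -0.66 and 0.42 on the D0 arrays and 0.25, 0.21, 0.15 and 0.37 on the D65 arrays, so that D0 replicate 3 alone stood low, and without that array the difference was 0.02. Without D0 replicate 4 it was 0.38 and with array weights 0.12, and it was not called in either case.

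Newborn arrays carried most of the spread in these ratios. For the 5 ratios other than Hprt to Rpl13a, the SD over the D0 arrays was 0.47 to 0.68 and over the D65 arrays 0.07 to 0.23. For Hprt to Rpl13a it was 0.11 at D0 and 0.22 at D65. The range of a ratio within the newborn arrays, 1.08 to 1.43 for those 5, was larger than each of their differences between the ages. The difference in spread itself was not tested.

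The array has 11 other genes with 20 spots, most of them also used as references. Of these, 4 were called lower (Tuba1b, Ldhal6b, Nono and Actb), 0 were called higher and 7 were not called. Of all kept probes, 12.6% were called lower and 22.1% in either direction. The median difference of the 11 genes was -0.40, where the median over all kept probes was 0.06. Ldhal6b was not well above background on all 8 arrays, and Actb overlapped between the ages. The gap between the ages was 0.03 for Nono, 0.73 for Ldhal6b and 1.62 for Tuba1b. The 2 called members rank 2 and 3 from the most negative among the 15 genes with 20 spots, after Tuba1b at -2.22. Tfrc at 0.71, Gapdh at 0.72 and B2m at 0.98 were the most positive and were not called, since they did not reach the minimum change. Their limma adjusted p was 0.0402, 0.0344 and 0.00939. For each of them every D65 array lay above every D0 array, with gaps of 0.11, 0.12 and 0.46. Of the 11 genes, 4 were lower and 3 higher without overlap between the ages. Of all kept probes, 16.4% were lower and 31.5% differed in either direction without overlap.

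**Figure D4:**
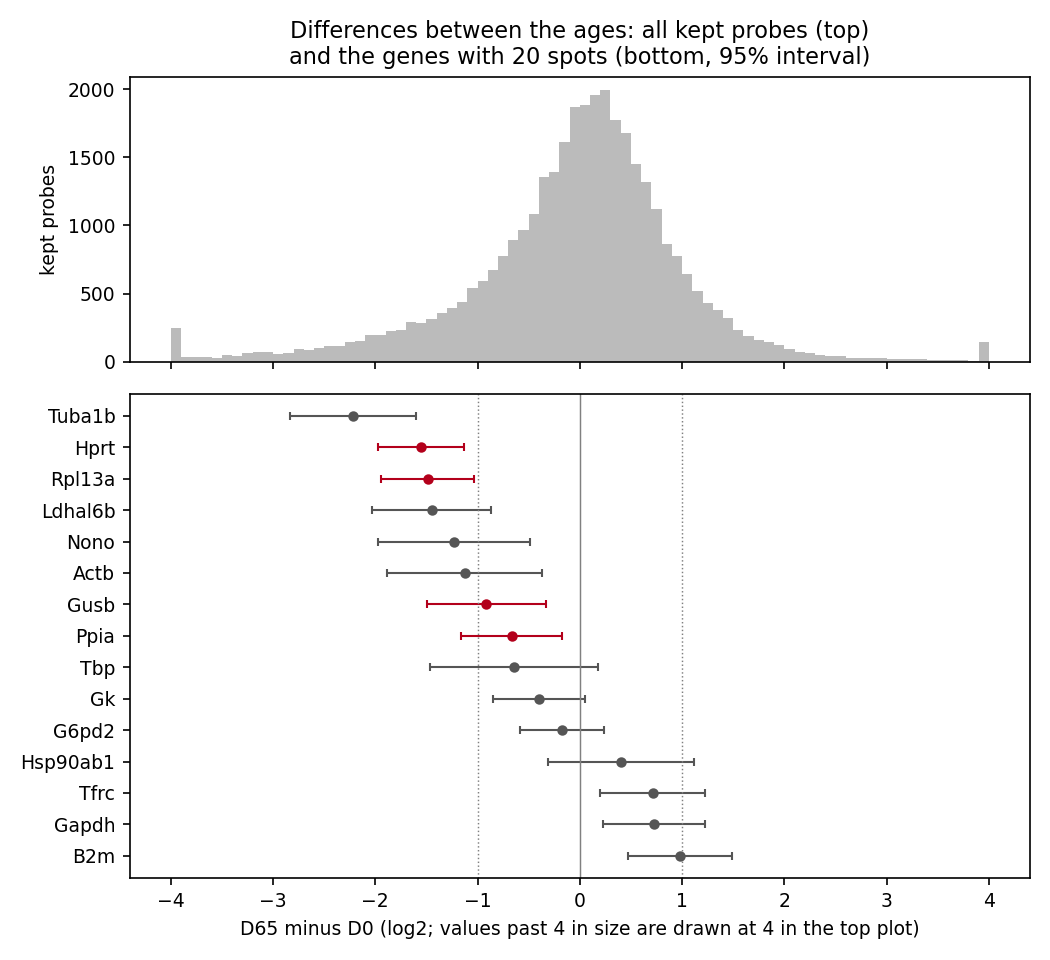
Differences between the ages (horizontal axis, D65 minus D0 on the log2 scale) for all 34948 kept probes as a histogram (top, number of probes per bin) and for the 15 genes with 20 spots as points with 95% intervals from limma (bottom), the 4 genes described here in red, with dotted lines at the minimum change. The intervals of Hprt and Rpl13a lie below -1 and those of Gusb and Ppia reach across it without reaching 0.

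The genes with a symbol whose profiles were closest to each member were sought among 62 genes well above background on all 8 arrays, by the root mean square distance between levels after each probe's mean over the 8 arrays was subtracted. For a pair of members this distance follows from the SD of their ratio over the 8 arrays, so it is no separate result. It includes the difference between the ages. Hprt and Rpl13a were each other's closest gene, at 0.15 on the log2 scale, where the median distance to all candidates was 0.95 and 0.92. Next to both came Aida, at 0.26 from Hprt and 0.19 from Rpl13a, which was also called lower (-1.31, SE 0.22, limma adjusted p 0.00173). Ppp2r3d and Nono followed, at 0.35 and 0.43 from Hprt and at 0.43 and 0.41 from Rpl13a. The closest gene to Gusb was Ppia, at 0.32, and then Ccdc82, Brox and Gm14819 at 0.33 to 0.35. Ppia itself was nearer to Brox (0.15), Dhrsx (0.22) and Gk (0.22), none of them called, than to Gusb, which had rank 9.

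**Figure D5:**
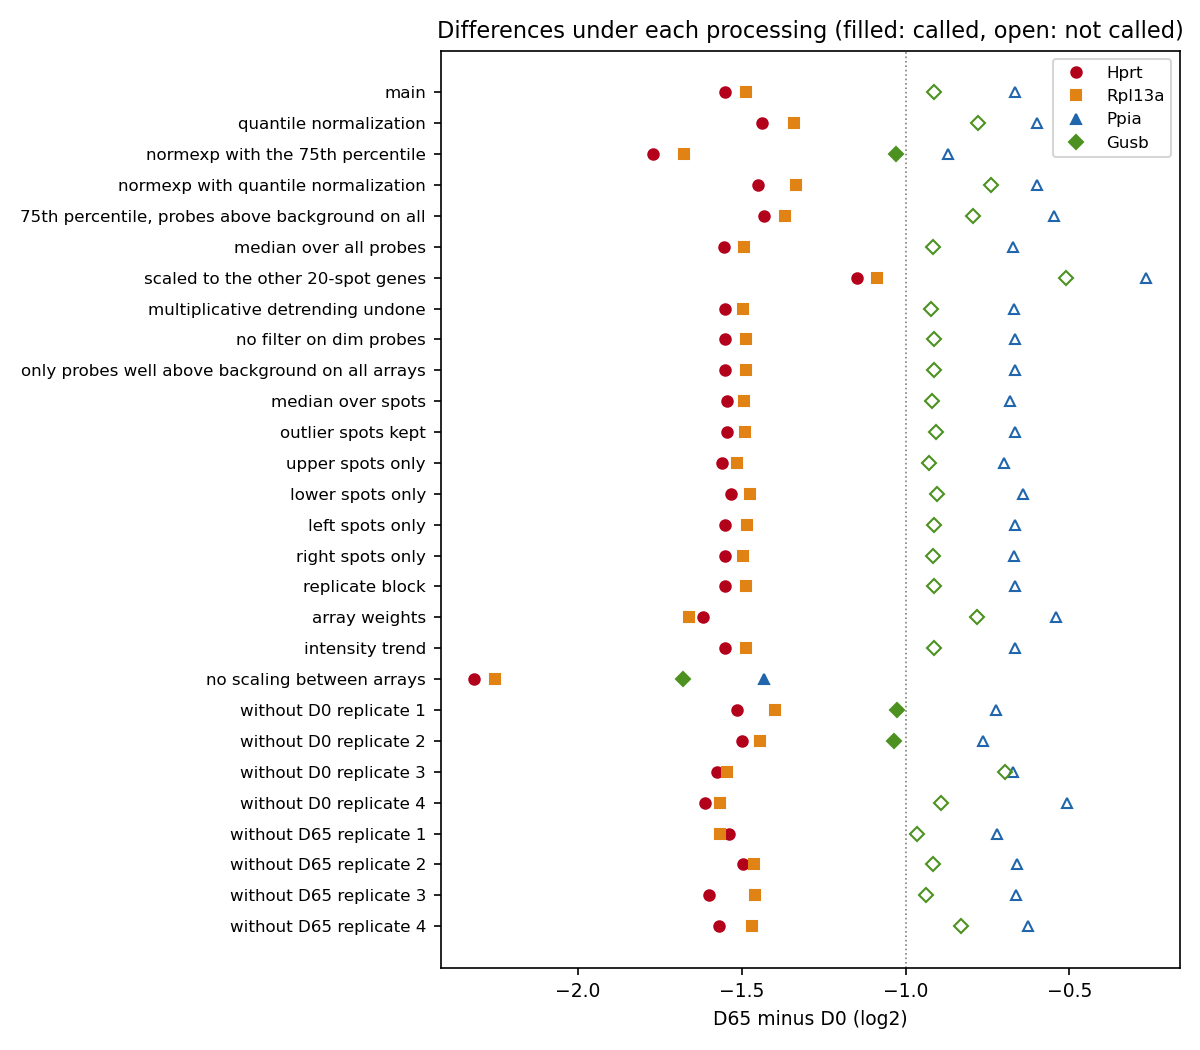
Difference of each gene (horizontal axis, D65 minus D0 on the log2 scale) under the main processing and each alternative drawn (vertical axis). Filled markers show where the gene was called and open ones where it was not, with a dotted line at the minimum change. The alternative that only drops the minimum change is not drawn, since its differences are those of the main processing. Hprt and Rpl13a stay left of the line throughout, and Ppia and Gusb stay right of it except with no scaling and, for Gusb, in 3 other settings.

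Scaling sets how large these differences appear. With no scaling between arrays the median over all kept probes was -0.70, and all 4 genes were called lower, at differences of -2.32 for Hprt, -2.25 for Rpl13a, -1.68 for Gusb and -1.43 for Ppia. Scaled to the 11 other genes with 20 spots, the median was 0.47, and Hprt at -1.15 and Rpl13a at -1.09 were still called. With a percentile taken only from probes detected on all 8 arrays, where the median was 0.18, Ppia stood at -0.55 (limma adjusted p 0.107) and Gusb at -0.79 (limma adjusted p 0.0414). All 4 genes were below 0 under every processing run.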

How the data were processed

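Per the file headers, these are arrays of 1 colour whose spots were quantified by Agilent Feature Extraction 11.0.1.1 on a grid built on mm9. The deposited files hold, per spot, the processed intensity (background-subtracted and detrended), the median intensities of spot and surroundings, and 0 or 1 flags. Control spots, the 20 negative control probes and outlier spots were removed. Probes flagged well above background on every array of D0, of D65 or of both were kept. D65 and D0 were contrasted in R 4.3.3 by limma 3.58.1 (lmFit, eBayes), adjusted by Benjamini-Hochberg. The fit was tested on simulated data of 34880 probes, where it recovered 45 of 100 changed by -1.5 and 68 of 100 changed by 2 (log2), with 4 false calls. Plots used Python 3.11.15.

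Of 123 RefSeq accessions on the array, 116 matched a symbol in a RefSeq gene table of GRCm38.p6, all 4 genes among them. The authors' normalized table holds none of the 4 probes and was not used. Named genes are the 4 members, the 3 closest named genes to each and, by count, the other genes with 20 spots. The members and lists were chosen with earlier results of these data known. The setting with no scaling between arrays was chosen after seeing the data. Replicate numbers are shared between the ages, but deviations of same-numbered arrays correlated at -0.13 to 0.28, so the numbers were not taken to pair the samples.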

Additional observations from a re-analysis of the deposited data

Results flagged for a closer look

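Among 20 groups of 4 arrays that were checked for an array far from the rest (4 genes and 6 ratios at each age), 1 held such an array, and chance gives about 1 in 20. The level of Rpl13a on D65 replicate 1 was 4.10, while the remaining adult arrays lay between 3.79 and 3.81. Without that array the difference of Rpl13a was -1.57, against -1.49 with it, and it was called in both cases.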

How the results depend on the processing

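Hprt and Rpl13a were called lower in all 28 alternatives, of which the alternative without a minimum change could not undo a call. Leaving out 1 array gave -1.61 to -1.50 for Hprt and -1.57 to -1.40 for Rpl13a. Without 1 array Ppia gave -0.76 to -0.51 and Gusb -1.04 to -0.70. With no minimum change Ppia (-0.67) and Gusb (-0.91) were called, as they were with no scaling (-1.43 and -1.68), and Gusb was called after normexp with the 75th percentile (-1.03). Without 1 array the ratio of Hprt to Rpl13a gave -0.14 to 0.03, Hprt to Ppia -1.11 to -0.74, Hprt to Gusb -0.88 to -0.46, Rpl13a to Ppia -1.06 to -0.67, Rpl13a to Gusb -0.85 to -0.37 and Ppia to Gusb 0.02 to 0.38. Hprt to Gusb was called after normexp, both with the 75th percentile (-0.74) and under quantile normalization (-0.71), and with array weights (-1.07), as was Rpl13a to Gusb with array weights (-1.07). The cause was not tested. The count of changed probes, 7739, was 4475 after normexp with the 75th percentile and 4241 if quantile normalization followed it, and 6894 to 10126 without 1 array. Calls of higher and lower probes were 3344 and 4395, and 818 and 10323 with no scaling, 7432 and 2958 scaled to the other genes with 20 spots, and 4200 and 3866 with the percentile taken only from probes detected on all 8 arrays. With replicate number as a block, the adjusted p of Ppia was 0.0823 and that of Gusb 0.0403, and no call of a gene or ratio changed. All spots of the 4 probes were well above background, and the number of arrays limits the precision.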
